A study of Homo sapiens with 12 samples.

Results

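The genes described here are 58 writers, erasers and readers of histone and DNA marks, out of 59276 gene symbols in the deposited expression table. They were picked by symbol, with no measured value in the rule, though earlier results of these data were known when they were chosen. All 58 were found. Their classes are PRC2 and its H3K27 methyltransferases, the other histone lysine methyltransferases, the lysine demethylases, the DNA methyltransferases with their helpers, the TET dioxygenases, the histone deacetylases and acetyltransferases, and 3 proteins that read or process methylated arginine. RNA came from JJN3, a human multiple myeloma cell line, in 4 groups of 3 samples. In the drug arm, cells received the solvent DMSO or 10 µM MS023, a small molecule inhibitor of type I protein arginine methyltransferases, for 3 days. In the guide arm, cells that had taken up Cas9 by lentivirus and been sorted on mCherry also carried a doxycycline-inducible guide RNA selected with puromycin. The guide was a control (isgCtrl) or iPRMT1_1 against PRMT1 (PRMT1-KO), and both guide groups were kept in doxycycline for 3 days. The knockout rests on 1 guide and every group on 1 cell line. The study's methods speak in general of independent experiments and biological replicates, and the labels do not say whether these replicates were separate cultures. The p-values measure the spread between these samples, which may in part be technical.

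Histone lysine methyltransferases and demethylases set and remove marks that differ by position: H3K4 methylation is typical of active promoters, H3K27 and H3K9 methylation of silenced chromatin, and H3K36 methylation of transcribed gene bodies. DNMT1 copies DNA methylation onto the new strand behind the replication fork, DNMT3A and DNMT3B add it to unmethylated sites, and TET enzymes oxidize it as a first step of its removal. PRMT1, the main type I enzyme, places asymmetric dimethylarginine on histone H4 and on many other proteins, and Tudor domain proteins such as TDRD3 and SND1 bind methylated arginine.

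PRMT1 mRNA in the PRMT1-KO samples averaged 304.0 ± 4.34 TPM against 859.8 ± 9.15 in isgCtrl (SD, n = 3), a log2 fold change of -1.50. MS023 cells held 673.1 ± 23.6 TPM of PRMT1 and DMSO cells 653.4 ± 18.3. These values are mRNA and do not measure PRMT1 protein or its activity. The study's western blots showed efficient loss of PRMT1 protein in induced cells and reduced asymmetric arginine dimethylation with MS023. The plasma cell markers XBP1 and SDC1 were high in both control groups. XBP1 was at 223.9 TPM in DMSO and 244.1 in isgCtrl, and SDC1 at 101.7 and 94.3 TPM. Of the 8 plasma cell markers 3 were called lower in isgCtrl than in DMSO (7.18% of all genes) and 1 higher (7.48%). The 3 lower were MZB1 (105.3 TPM in DMSO and 2.01 in isgCtrl), SLAMF7 (9.32 and 0.369 TPM) and CD38 (4.96 and 1.33 TPM). IRF4 was higher (95.1 and 157.4 TPM). The control groups thus differ in genes of this cell type. The 4 B cell markers summed to at most 0.307 TPM in any sample and the 8 T, NK and myeloid markers to at most 3.18. Depth per sample is not known from these values, since the TPM scale gives each library one fixed sum. In bulk RNA, fewer cells with a transcript and less of it in each cell cannot be told apart.

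In DMSO the 57 tested members ran from 264.3 down to 2.23 TPM, and TET1, which was not tested, stood at 0.139. The deacetylases HDAC1 and HDAC2 held the top, while HDAC4 ranked 52 of 58. HDAC1, a catalytic subunit of the Sin3, NuRD and CoREST complexes, stood highest in DMSO at 264.3 ± 3.63 TPM (SD, n = 3), and its close relative HDAC2 followed at 151.4 ± 3.36. SND1, a Tudor domain protein with nuclease folds, came next at 138.9 ± 4.73 TPM, followed by DNMT1 at 92.4 ± 8.23. The ranges of those 4 genes in DMSO did not overlap. KDM1A, the flavin-dependent demethylase of H3K4 in the CoREST complex, was the highest demethylase at 57.3 TPM, and EHMT2, which dimethylates H3K9, the highest lysine methyltransferase at 50.2 ± 2.35. EZH2, the H3K27 methyltransferase of PRC2, had 39.8 ± 1.03 TPM and its paralog EZH1 10.0 ± 2.24.

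The remaining classes ranged as follows in DMSO, in mean TPM. SETD1B, a COMPASS H3K4 methyltransferase, had 3.22, below KMT2B at 13.9, the highest of that class. SUV39H1, which trimethylates H3K9 in heterochromatin, had 14.5, and SETD2, the enzyme for trimethylated H3K36, 5.62, where KMT5A, which monomethylates histone H4, had 26.8. The ranges of SMYD2 (10.7) and SMYD3 (11.1), lysine methyltransferases with a split SET domain, overlapped. KDM6B, an H3K27 demethylase, had 2.62, DNMT3A 2.24, and HDAC4, a class IIa deacetylase, 3.62. CREBBP, a histone acetyltransferase and coactivator, had 5.66 against 23.8 for KAT2A, the SAGA acetyltransferase, and TDRD3 had 12.1. TET2 at 2.32 and TET3 at 2.23 TPM were near the bottom. TET1 was at or under 0.300 TPM in all 12 samples, fell under the expression limit of a mean log2(TPM+1) above 1 in every comparison, and is the 1 member that was not tested.

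**Figure D1:**
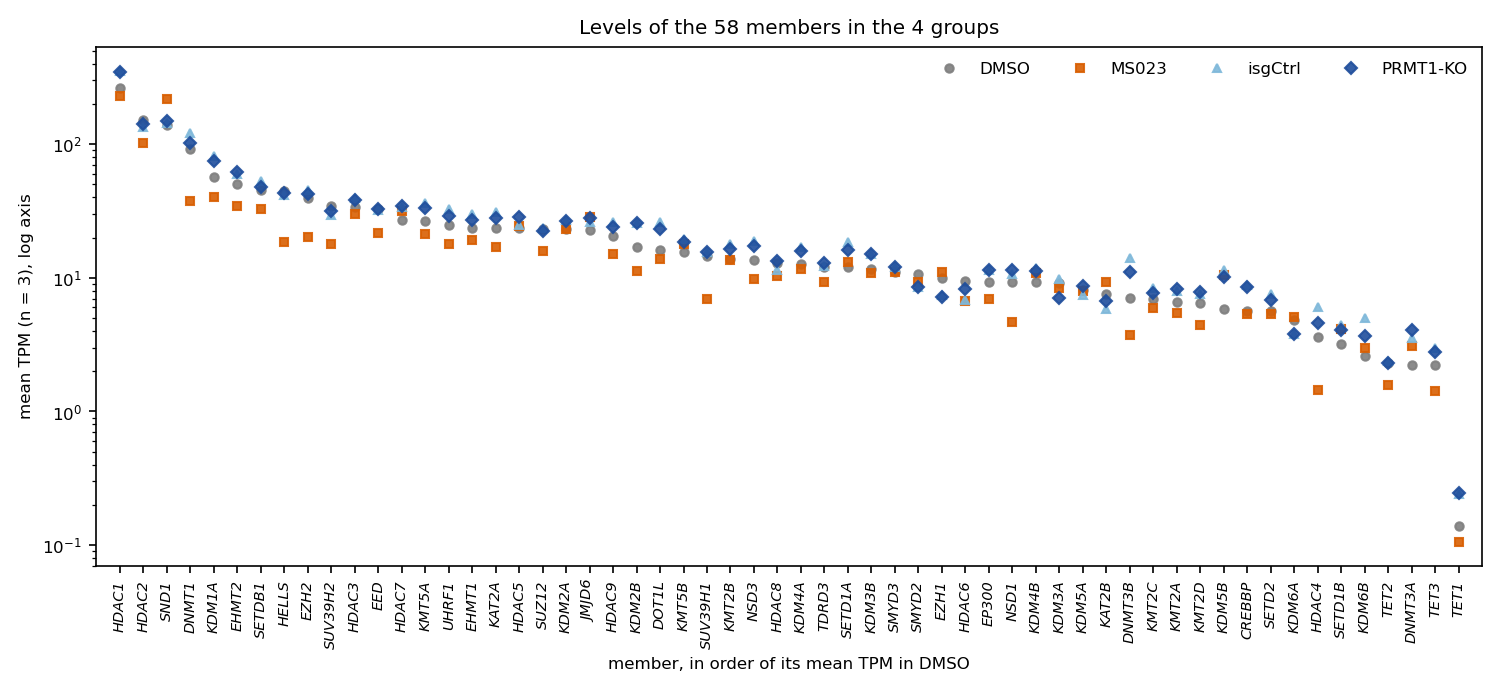
Mean TPM of the 58 members in the 4 groups (n = 3 each), on a log axis and in order of the DMSO mean. HDAC1 leads at 264.3 TPM in DMSO and TET1 is last at 0.139, and the orange symbols of MS023 lie below the grey ones of DMSO for DNMT1, EZH2 and HELLS and above them for SND1 and KDM5B.

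On the deposited scale, more of these genes were lower with MS023 than higher, as was the case across all genes tested. Each change is a difference of mean log2(TPM+1), tested with limma across all genes with Benjamini-Hochberg adjustment. A gene was called where its adjusted p was under 0.05 and its log2 fold change lay beyond 0.48 in size, the limits in the study's methods. For PRMT1-KO the study's number of differentially expressed genes is close to the one found here. For MS023 the study reports far fewer genes than were called here, and the reason was not tested. Of the 57 members tested, 16 were called (28.1%), against 30.9% of all 12903 genes tested. The split by direction was 14 lower (24.6% of members, 19.3% of all genes) and 2 higher (3.51% of members, 11.6% of all genes). The median log2 fold change of the members was -0.23, where that of all tested genes was -0.11. Median-ratio scaling, which sets the typical gene to no change, moved the median of all genes up by 0.11. It left 8 of the 57 members called lower and 2 higher, where 1885 and 1995 of all 12903 genes were. Without it 2486 of all genes were lower and 1500 higher. Across all genes it took the lower share of the calls from 62.4% to 48.6%. It turned the sign of 7 members, none of them called: KMT2B, SETD2, KDM2A, KDM3A, KDM3B, KDM5A and CREBBP. With an adjusted p under 0.05 at any fold change, 26 members were lower and 6 higher. Across all genes 30.4% were lower and 18.4% higher by that rule.

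The DNA methylation machinery held the largest decreases, with 3 of its 5 members called lower (19.3% of all genes) and none higher (11.6%). DNMT1, the maintenance methyltransferase, measured 82.9, 97.3 and 97.0 TPM in DMSO and 40.3, 33.1 and 40.3 TPM with MS023. Every treated sample was below every control sample, at 41.0% of the control mean, and the log2 fold change was -1.27 (SE 0.11, adjusted p = 4.3e-04). HELLS, a chromatin remodeller that DNA methylation of repeats depends on, went from 43.5, 45.0 and 46.1 TPM to 21.2, 18.7 and 15.8. Its log2 fold change was -1.24 (SE 0.11, adjusted p = 4.5e-04). DNMT3B, a de novo methyltransferase, read 7.16, 6.83 and 7.33 TPM in DMSO and 3.29, 3.80 and 4.06 TPM with the drug, a log2 fold change of -0.78 (SE 0.08, adjusted p = 7.9e-04). None of the 3 had overlapping groups, and their calls held under all 14 alternatives. UHRF1, which brings DNMT1 to hemimethylated sites, was at 25.0 ± 0.971 TPM in DMSO and 17.8 ± 1.25 with MS023, a log2 difference of -0.47 (adjusted p = 0.0037) just short of the fold limit. DNMT3A, the other de novo enzyme, was at 2.24 ± 0.405 TPM in DMSO and 3.11 ± 0.617 with MS023, and did not pass (log2 difference 0.34, adjusted p = 0.101).

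The promoters of this class can be read against a motif that many S phase genes share. E2F factors bind near the start sites of replication genes at sites close to TTTNNCGC, where N is any base. These 4 stretches are shown because they hold this motif close to the start. They belong to 3 of the 4 largest decreases, DNMT1, HELLS and EZH2 (a PRC2 gene), and to UHRF1, which missed the fold limit. SUV39H1, the other of the 4 largest decreases, and DNMT3B had no match in their promoter windows. The stretches shown run from 120 bases before the RefSeq transcript start to 10 bases after it on GRCh38.p14, 5′ to 3′ along the gene. Capitals mark the motif on either strand.
DNMT1, chr19:10194944-10195073, minus strand: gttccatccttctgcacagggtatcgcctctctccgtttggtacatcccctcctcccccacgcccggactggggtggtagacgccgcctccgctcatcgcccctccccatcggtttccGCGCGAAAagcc
HELLS, chr10:94545668-94545797, plus strand: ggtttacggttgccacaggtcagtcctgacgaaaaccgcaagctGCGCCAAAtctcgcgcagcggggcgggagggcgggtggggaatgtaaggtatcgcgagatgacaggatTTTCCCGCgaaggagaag
EZH2, chr7:148884282-148884411, minus strand: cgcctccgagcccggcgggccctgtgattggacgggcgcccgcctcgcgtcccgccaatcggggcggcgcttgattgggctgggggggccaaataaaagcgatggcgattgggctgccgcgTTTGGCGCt
UHRF1, chr19:4909381-4909510, plus strand: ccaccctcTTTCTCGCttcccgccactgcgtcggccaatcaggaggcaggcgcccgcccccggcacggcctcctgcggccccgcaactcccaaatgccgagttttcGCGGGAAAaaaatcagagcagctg
In DNMT1 the motif begins 2 bases before the start and in EZH2 at base 2 of the transcript, while HELLS and UHRF1 each hold 2 copies, at 76 and 8 and at 112 and 14 bases before the start. By GENCODE 44 the first lies inside the outer bounds of DNMT1 (chr19:10133342-10231286), and those of HELLS (chr10:94545329-94613905) and UHRF1 (chr19:4903080-4962154) also lie within the gene, whereas the EZH2 stretch reaches past the 5′ end of the gene (chr7:148807257-148884321). All are protein-coding.

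Promoters of 300 bases, 250 before and 50 after the start, were at hand in RefSeq for 53 of the 58 members, and SETD1B, NSD3, DOT1L, HDAC5 and JMJD6 had no entry. Of 27305 promoters of all genes, 6.90% hold TTTNNCGC on either strand, and 9 of the 53 members do (17.0%). Among the members called lower with MS023 it was in 4 of 14 (28.6%): EZH2, HELLS, SUZ12 and DNMT1. It was in 5 of the 37 members not called (13.5%), namely SMYD2, SMYD3, KMT2D, EZH1 and UHRF1, and in neither of the 2 called higher. TTTGAA, the core of the cell cycle homology region, was in 3 of the 14 called lower (21.4%) and in 15.4% of all promoters, and CCAAT in 6 of 14 (42.9%) and in 35.7%. Motifs may overlap one another, and a match describes letters in the window and no binding.

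PRC2, the complex that methylates H3K27, was called lower in 3 of its 4 members, against 19.3% of all genes. EZH2 was at 40.9, 38.9 and 39.5 TPM in DMSO and 20.3, 19.7 and 20.6 TPM with MS023, or 50.8% of the control, with a log2 fold change of -0.94 (SE 0.06, adjusted p = 1.5e-04). EED, the subunit that binds trimethylated H3K27, went from 34.0, 33.8 and 31.1 TPM to 22.1, 20.4 and 23.0 (log2 fold change -0.58, adjusted p = 0.0017). SUZ12, which holds the complex together, had 25.3, 22.3 and 22.3 TPM in DMSO and 14.8, 16.4 and 16.1 TPM with the drug (-0.53, adjusted p = 0.0029). No control and treated sample overlapped in any of the 3. The decreases of EED and SUZ12 were close to the fold limit: under median-ratio scaling they were -0.46 and -0.42 and were no longer called, and the call of SUZ12 was also lost without DMSO replicate 1. SUZ12 has a partial copy, SUZ12P1, and how Salmon divided reads between them was not tested. EZH1, the paralog of EZH2 that is common in resting cells, was 10.0 ± 2.24 TPM in DMSO and 11.1 ± 0.670 with MS023, with overlapping groups (log2 difference 0.15, adjusted p = 0.446).

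All 5 H3K9 methyltransferases were lower in every MS023 sample than in any DMSO sample, and 3 of them were called. Of all genes tested, 36.3% were lower without overlap and 19.3% were called lower. SUV39H1 read 14.4, 13.5 and 15.7 TPM in DMSO and 6.88, 7.58 and 6.33 TPM with MS023, a log2 fold change of -0.97 (SE 0.09, adjusted p = 5.1e-04). SUV39H2, which sets the same mark, was more variable, with 38.6, 28.3 and 36.1 TPM against 21.8, 12.8 and 19.5 (-0.91, SE 0.21, adjusted p = 0.015). Its adjusted p was 0.052 without DMSO replicate 1. EHMT2, also known as G9a, went from 51.4, 47.5 and 51.7 TPM to 33.5, 36.6 and 33.9 (-0.52, adjusted p = 0.0019), a change that median-ratio scaling put at -0.40. SETDB1, which silences transposons with KAP1, had a log2 difference of -0.47 (adjusted p = 0.024) and EHMT1, the partner of EHMT2, had -0.29 (adjusted p = 0.029), both under the fold limit.

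Of the enzymes for H3K36, H3K79 and H4K20, NSD1 alone was called. NSD1, an H3K36 dimethyltransferase, measured 8.62, 9.51 and 9.92 TPM in DMSO and 5.26, 3.99 and 4.84 TPM with MS023, or 50.3% of the control (log2 fold change -0.87, SE 0.11, adjusted p = 0.0013). Its relative NSD3 had a log2 difference of -0.44 (adjusted p = 0.032), KMT5A of -0.32 (adjusted p = 0.012) and DOT1L, the H3K79 methyltransferase, of -0.20 (adjusted p = 0.048), all under the fold limit. SETD2 and KMT5B had adjusted p above 0.05, with log2 differences of -0.06 and 0.16.

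None of the 6 H3K4 methyltransferases was called in limma, and 2 had an unadjusted p under 0.05, where 7286 of all 12903 genes did. KMT2D, the enhancer enzyme of the COMPASS family, had a log2 difference of -0.46 (adjusted p = 0.0072) and SETD1B of 0.29 (adjusted p = 0.013), both under the fold limit. The other 4 had log2 differences between -0.23 and 0.11 with adjusted p above 0.05, and KMT2C shares near-identical sequence with copies elsewhere. Neither SMYD2 nor SMYD3 passed the test.

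The demethylases moved both ways. KDM5B, which removes H3K4 methylation, had 5.75, 5.64 and 6.0 TPM in DMSO and 11.5, 8.39 and 11.7 TPM with MS023, 1.82 times the control mean (log2 fold change 0.75, SE 0.13, adjusted p = 0.0047). Its relative KDM5A had overlapping groups and a log2 difference of -0.02 (adjusted p = 0.924), which turned to 0.09 under median-ratio scaling. KDM2B, which recruits a variant PRC1 to CpG islands, went the other way, from 16.5, 17.2 and 17.1 TPM to 12, 10.7 and 10.9 (-0.55, SE 0.07, adjusted p = 0.0014), while KDM2A had 23.3 ± 0.823 TPM in DMSO and 23.2 ± 2.38 with MS023. KDM1A read 57.3, 57.8 and 56.9 TPM in DMSO and 43.4, 39.5 and 37.9 TPM with the drug (-0.50, SE 0.07, adjusted p = 0.0024). The calls of KDM2B and KDM1A were lost under both scalings, which put them at -0.44 and -0.38 (median-ratio), and KDM1A was also lost without MS023 replicate 3. Among the other 6 demethylases, KDM4B passed at a log2 difference of 0.20 (adjusted p = 0.037), under the fold limit.

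Deacetylases were called lower in 2 of 9 cases (22.2%, against 19.3% of all genes) and acetyltransferases in 0 of 4. Of those 4, 2 had an unadjusted p under 0.05, where 7286 of all 12903 genes did. HDAC2 measured 154.7, 151.5 and 148.0 TPM in DMSO and 102.7, 88.4 and 113.1 TPM with MS023 (log2 fold change -0.58, SE 0.10, adjusted p = 0.0049), and median-ratio scaling put it at -0.46, under the fold limit. HDAC4 read 4.61, 3.93 and 2.33 TPM in DMSO and 1.51, 1.26 and 1.56 TPM with the drug, 39.8% of the control (-0.89, SE 0.20, adjusted p = 0.012). HDAC1 was at 231.6 ± 22.8 TPM with MS023 (log2 difference -0.19, adjusted p = 0.113). HDAC9, a class IIa enzyme like HDAC4, had a log2 difference of -0.44 (adjusted p = 0.034), under the fold limit. KAT2A, at 23.8 ± 0.491 TPM in DMSO and 17.0 ± 0.537 with MS023, had -0.46 (adjusted p = 0.0017) and its paralog KAT2B, at 7.59 ± 0.721 and 9.34 ± 0.529 TPM, had 0.27 (adjusted p = 0.042), both under the fold limit. EP300 and CREBBP did not pass, at log2 differences of -0.39 and -0.07. Both tested TET genes passed under the fold limit, TET3 at -0.41 (adjusted p = 0.0054) and TET2 at -0.37 (adjusted p = 0.030). Their low levels, 1.43 and 1.57 TPM with MS023, make the +1 of the scale count for much.

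SND1 was the other member called higher with MS023, beside KDM5B, and 1 of the 4 most abundant. On chromosome 7 (chr7:127652194-128092609, plus strand), it had 143.4, 134.0 and 139.4 TPM in DMSO and 210.5, 215.7 and 223.0 TPM with MS023, 1.56 times the control (log2 fold change 0.64, SE 0.06, adjusted p = 6.3e-04), and the samples did not overlap. JMJD6, a 2-oxoglutarate oxygenase, had a log2 difference of 0.28 (adjusted p = 0.0092) and TDRD3 of -0.34 (adjusted p = 0.046), neither past the fold limit.

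**Figure D2:**
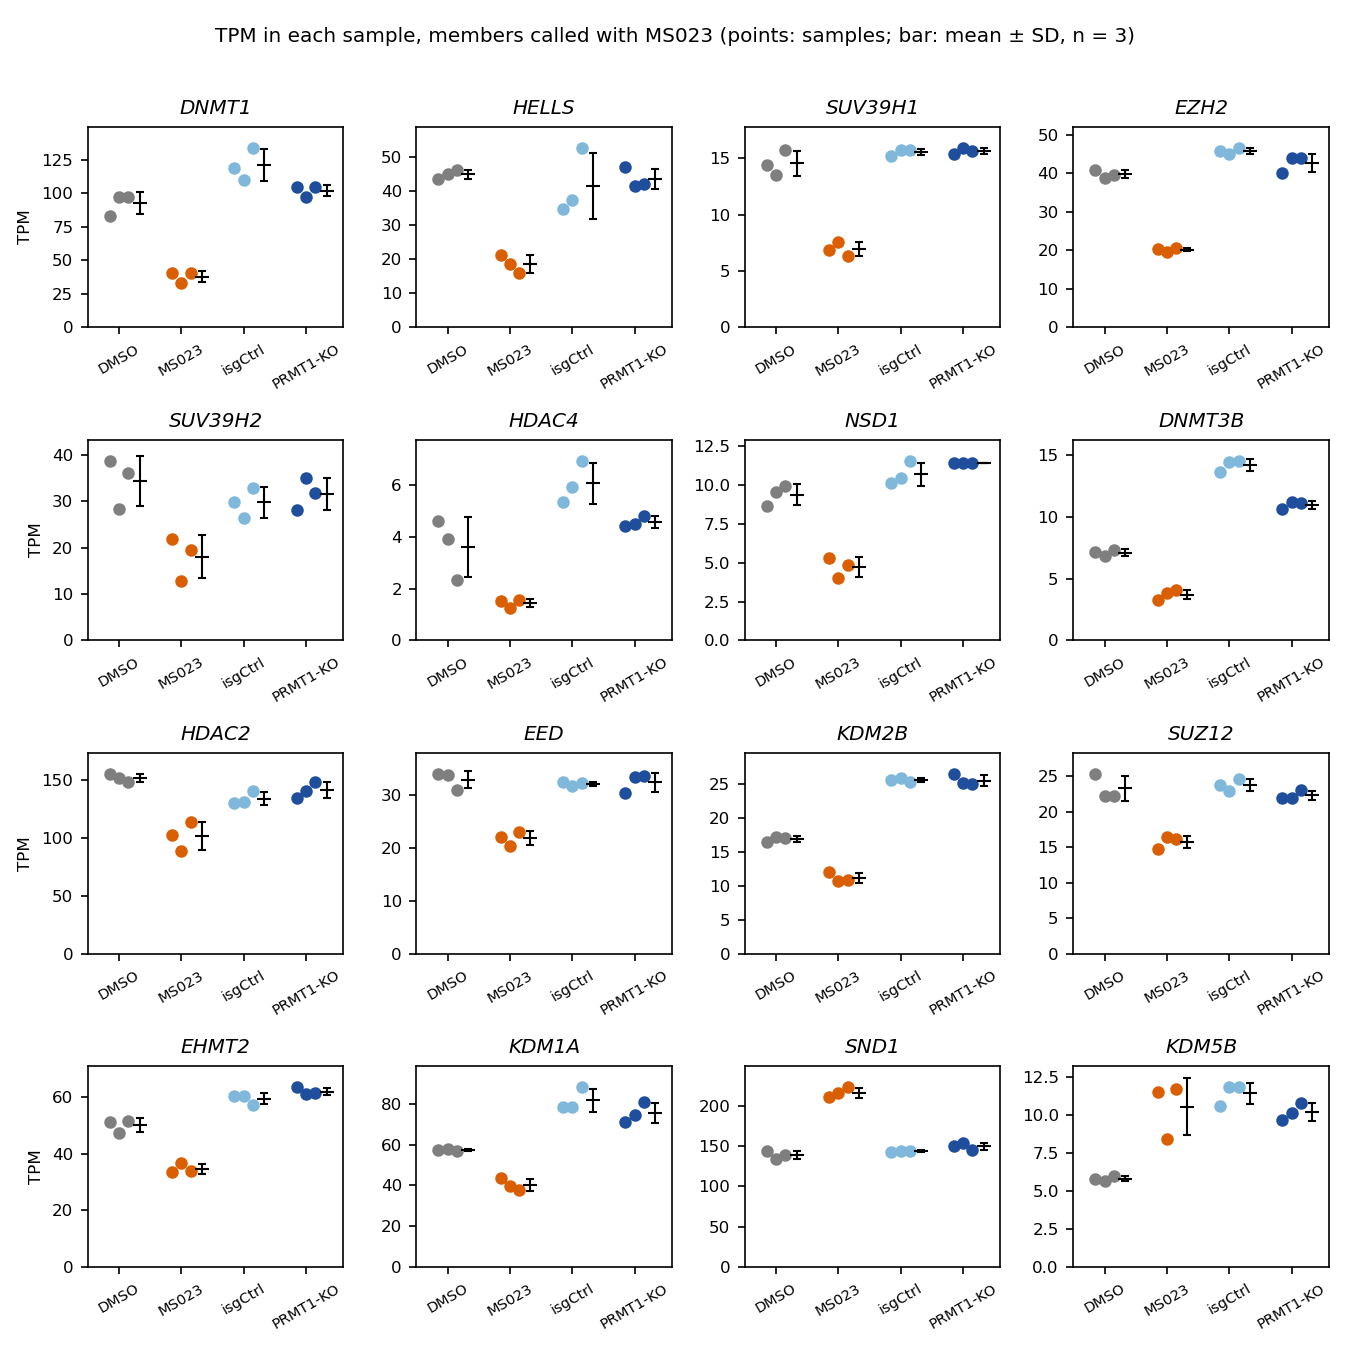
TPM in each sample (points) with mean ± SD (bars, n = 3) for the 16 members called with MS023, from the largest decrease to the largest increase, each on its own linear axis from 0. The orange MS023 points of every panel lie clear of the grey DMSO points, below them in 14 panels and above them for SND1 and KDM5B, while the dark blue PRMT1-KO points are clear of the light blue isgCtrl points in the panels of DNMT1, DNMT3B, HDAC4, EZH2, EHMT2 and SND1 alone.

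All 16 proliferation markers examined beside these genes were called lower with MS023, as were 19.3% of all genes. Of the 16, CCNB1 fell the most, at a log2 fold change of -1.63. Their summed level was 2370 to 2440 TPM in DMSO samples and 1213 to 1287 in MS023 samples. It was 2542 to 2649 TPM in isgCtrl and 2511 to 2569 in PRMT1-KO. There limma called none of the 16 (0.781% of all genes), and 1 had an unadjusted p under 0.05 (18.6% of all genes). Of the 8 plasma cell markers 4 were called higher with MS023 (11.6% of all genes) and 1 lower (19.3%). Among the 4 were SLAMF7 (9.32 TPM in DMSO, 52.2 with MS023) and XBP1 (223.9 and 496.4 TPM), and CD38 was lower (4.96 and 2.24 TPM). The summed level of all 8 was 715.7 to 755.3 TPM in DMSO and 1153 to 1197 in MS023 samples. The sum in the isgCtrl samples ranged from 652.6 to 667.4 TPM, and PRMT1-KO samples held 627.2 to 630.8 TPM. In PRMT1-KO limma called 0 of the 7 markers tested (0.781% of all genes), and 1 had an unadjusted p under 0.05 (18.6%). The part of either list's change in the levels of DNMT1, HELLS, EZH2 and the other members was not tested.

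PRMT1-KO cells showed no member past both limits. In limma, 0 of 57 members were called (0.781% of all 12285 genes tested were), and 9 members had an unadjusted p under 0.05, where 18.6% of all genes did. The median log2 fold change was -0.04 for the members and -0.04 for all genes tested, and single members lay between -0.42 and 0.23. DNMT3B had the smallest p, with 13.6, 14.4 and 14.5 TPM in isgCtrl and 10.6, 11.2 and 11.1 TPM in PRMT1-KO. The groups did not overlap, and the log2 difference of -0.34 (SE 0.05) had an adjusted p of 0.0484, under the fold limit. It was the 1 member past that p limit at any fold change in the lower direction, as were 0.602% of all genes. Over the alternatives that adjusted p ranged from 0.0247 to 0.176, and it was 0.126 to 0.159 when any 1 of the 6 samples was left out.

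The next members by p did not pass the adjustment. HDAC5, a class IIa deacetylase, had 24.9, 25.1 and 25.1 TPM in isgCtrl and 28.6, 28.6 and 28.4 TPM in PRMT1-KO, a log2 difference of 0.18 (SE 0.04, adjusted p = 0.122). HDAC4 read 5.36, 5.94 and 6.94 TPM against 4.42, 4.50 and 4.83 (-0.34, adjusted p = 0.153). KAT2B read 6.01, 5.53 and 6.06 TPM against 6.61, 6.63 and 6.85 (0.17, adjusted p = 0.199). In all 3 the groups were apart, which held for 15 of the 57 members and for 26.7% of all genes. SETD1A, a COMPASS enzyme, had 17.6, 19.3 and 18.9 TPM in isgCtrl and 15.2, 16.6 and 16.9 TPM in PRMT1-KO (-0.19, adjusted p = 0.216). DOT1L had 26.4, 24.6 and 27.5 TPM against 23.2, 23.4 and 23.3 (-0.16, adjusted p = 0.225). For scale, DNMT1 was at 120.8 ± 12 TPM in isgCtrl and 101.9 ± 4.30 in PRMT1-KO, EZH2 at 45.8 ± 0.782 and 42.7 ± 2.31, and SND1 at 143.5 ± 1.05 and 149.9 ± 4.43.

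**Figure D3:**
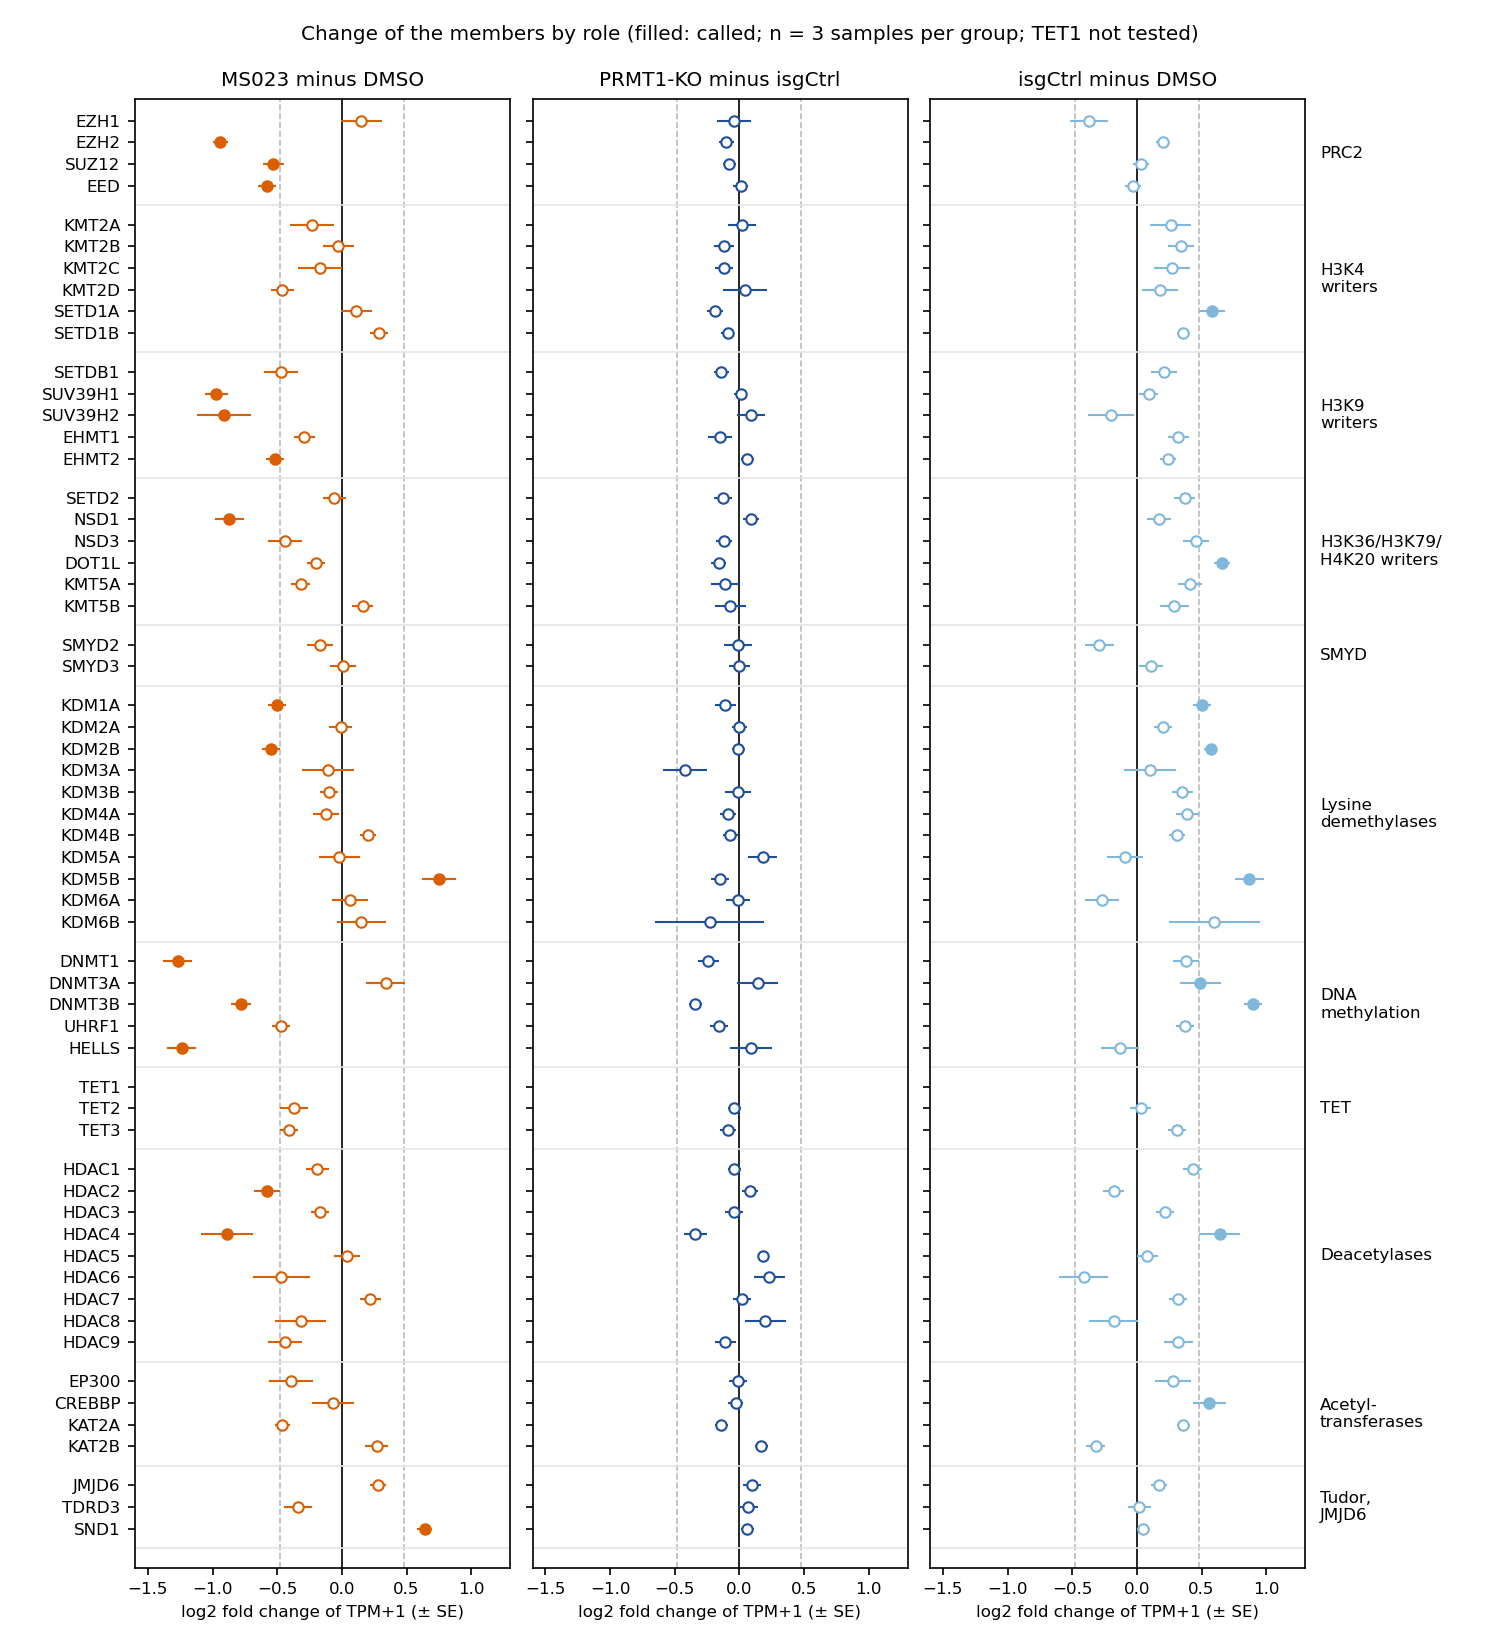
Log2 fold change of TPM+1 with its limma SE for the 57 tested members, by role, in 3 comparisons (n = 3 per group), where filled symbols are called and dashed lines mark 0.48. The MS023 panel holds 16 filled symbols, 14 of them on the left, the PRMT1-KO panel holds none, and the panel of the control groups holds 9, all on the right.

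The effects of the drug and of the knockout were set against each other in 1 model of all 12 samples. Their difference was called for 12 of 57 members (24.4% of 13256 genes tested), 10 lower with MS023 (14.7% of all genes) and 2 higher (9.69%), and all 12 were among the 16 called with the drug. It was largest for HELLS, at -1.32 (SE 0.21, adjusted p = 8.4e-04), DNMT1, at -1.03 (SE 0.14, adjusted p = 4.3e-04), and SUV39H2, at -1.0 (SE 0.26, adjusted p = 0.014). KDM5B differed by 0.90 (SE 0.15, adjusted p = 0.0012) and SND1 by 0.57 (SE 0.07, adjusted p = 1.5e-04). For 4 members called with MS023 the difference was not called: DNMT3B at -0.44 (adjusted p = 0.0043), SUZ12 at -0.45 (adjusted p = 0.0036), KDM1A at -0.39 (adjusted p = 0.013) and HDAC4 at -0.55 (adjusted p = 0.094). Those of DNMT3B, SUZ12 and KDM1A passed the p limit and missed the fold limit. DNMT3B and HDAC4 were also among the 3 members of smallest p in PRMT1-KO, with the same sign as with MS023.

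The 2 control groups differed in these genes. In isgCtrl against DMSO 9 members were called higher (15.8%, against 7.48% of all 12661 genes tested) and none lower (7.18% of all genes), while 34 had an unadjusted p under 0.05 in either direction (48% of all genes). The median log2 difference was 0.27 for the members and 0.07 for all genes. With no fold limit 29 members were higher (23.9% of all genes) and 1, KAT2B, was lower (14.9%), at -0.32 (adjusted p = 0.0046). The isgCtrl cells carried Cas9 and a guide, had passed selection and received doxycycline, and these differences from DMSO cells cannot be told apart. Whether the DMSO and MS023 cells carry Cas9 is not stated in the labels. The comparison shares its DMSO samples with the MS023 comparison and its isgCtrl samples with the knockout comparison.

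DNMT3B had the largest difference, at 7.10 ± 0.257 TPM in DMSO and 14.2 ± 0.494 in isgCtrl (log2 difference 0.90, SE 0.07, adjusted p = 6.5e-06). KDM5B followed at 5.80 ± 0.184 and 11.4 ± 0.678 TPM (0.87, adjusted p = 1.8e-04), so that its level in both guide groups was about that of MS023 cells, 10.5 ± 1.86 TPM. DOT1L was 0.66 higher (adjusted p = 2.1e-05), HDAC4 0.64 (adjusted p = 0.012), SETD1A 0.58 (adjusted p = 0.0012), KDM2B 0.57 (adjusted p = 3.5e-05) and CREBBP 0.56 (adjusted p = 0.0066). KDM1A, 0.50 higher (adjusted p = 4.3e-04), and DNMT3A, 0.49 higher (adjusted p = 0.037), lay at the fold limit, and DNMT3A kept its call in 5 of 13 alternatives. The calls of HDAC4, CREBBP and KDM1A were each lost without 1 library, namely DMSO replicate 3, DMSO replicate 2 and isgCtrl replicate 3, and that of KDM1A also under median-ratio scaling and quantile normalization. Of these 9, DNMT3B, HDAC4, KDM2B and KDM1A were lower with MS023 and KDM5B was higher. HDAC1, with 264.3 ± 3.63 TPM in DMSO and 355.9 ± 8.82 in isgCtrl, had a log2 difference of 0.43 (adjusted p = 9.1e-04), under the fold limit.

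Members that are close paralogs were compared within each sample, as the log2 ratio of their TPM+1, in 19 pairs. With MS023, 5 pairs shifted by more than 0.48, and the groups of 10 pairs were apart. Two-sided exact permutation tests cannot go below p = 0.1 with 3 samples against 3, and the lowest adjusted p over the pairs was 0.19, so the shifts are given as values. DNMT3A over DNMT3B moved from -1.33 ± 0.18 to -0.21 ± 0.30 and EZH1 over EZH2 from -1.91 ± 0.26 to -0.81 ± 0.09 (SD, n = 3). The less abundant paralog thus gained share in both pairs. KDM2A over KDM2B went from 0.44 ± 0.06 to 0.98 ± 0.17, KDM5A over KDM5B from 0.41 ± 0.16 to -0.36 ± 0.16 and KAT2A over KAT2B from 1.53 ± 0.11 to 0.80 ± 0.04. KDM5A and KDM5B thereby changed order. In PRMT1-KO against isgCtrl no pair shifted by more than 0.48, 5 pairs had groups apart, and the lowest adjusted p was 0.38. Between isgCtrl and DMSO 9 pairs had groups apart and 5 passed 0.48. Among those 5 were KAT2A over KAT2B, at 2.22 ± 0.08 in isgCtrl, and KDM5A over KDM5B, at -0.55 ± 0.05.

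Chromatin genes outside the 58 were read in 9 lists of partners, 114 genes in all. Of the 111 tested, 21 were called with MS023 (18.9%, where 30.9% of all genes were), 18 lower (19.3% of all genes) and 3 higher (11.6%). Among 8 tested PRC2 accessory subunits 3 were lower, most of all EPOP, a PRC2.1 subunit, which fell by 1.02 from 14.7 to 6.72 TPM (adjusted p = 1.2e-04). RBBP4, the histone chaperone shared by PRC2, NuRD and CAF-1, fell by 0.85 from 218.2 to 121.0 TPM (adjusted p = 3.1e-04). Of 17 PRC1 subunits 3 were lower, CBX2 the most at -0.75, and CBX6 was higher at 0.56.

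In the methyl-CpG reader and base excision list 4 of 11 were lower, UHRF2, the paralog of UHRF1, the most at -0.71 (adjusted p = 0.0013). Among 12 other lysine methyltransferases 3 were lower, KMT5C by 0.95 (adjusted p = 0.027) and NSD2 by 0.93 (adjusted p = 4.0e-04). HAT1, the cytoplasmic acetyltransferase of newly made histone H4, fell by 0.92 from 106.6 to 55.7 TPM (adjusted p = 1.5e-04), 1 of 2 lower among 18 acetyltransferases and subunits. SIRT2, an NAD-dependent deacetylase, was 0.88 higher, from 34.3 to 63.8 TPM (adjusted p = 3.7e-04), 1 of 2 higher among 18 deacetylases and corepressors. PAXIP1, a subunit of the KMT2C and KMT2D complexes, was lower by 0.75, 1 of 2 among 10 COMPASS subunits. In the list for supply of the methyl donor SAM, MTR, methionine synthase, was the 1 of 8 called, lower by 0.91. None of 9 other demethylases was called, and 2 had an unadjusted p under 0.05, where 7286 of all 12903 genes did. In PRMT1-KO 0 of the 111 were called (0.781% of all genes), and 23 had an unadjusted p under 0.05 (18.6% of all genes). In isgCtrl against DMSO 14 were called higher (7.48% of all genes) and 0 lower (7.18%), while 63 had an unadjusted p under 0.05 (48%).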

How the data were processed

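RNA-seq of 12 samples was analysed from 1 table. The authors deposited gene values as log2(TPM+1), made, by their methods and processing notes, with FastQC, Trimmomatic, STAR in two-pass mode on hg38 with GENCODE V35, and Salmon, whose versions are not given in the sources used here. Such values hide depth, and no interval for counting error can be given. Groups follow the sample titles. Genes with a mean above 1 in a compared group were fitted with limma 3.58.1 (R 4.3.3, eBayes without trend, Benjamini-Hochberg), on the 6 samples of the MS023 or PRMT1-KO comparison and on all 12 for the other contrasts. Positions are those of GENCODE 44 and promoters those of RefSeq.

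The members, partner lists and tests were chosen with earlier results of these data known. Named were called members, the 6 of smallest p in PRMT1-KO, each class's highest and lowest in DMSO, untested members, pairs whose changes differ by more than 0.48, and each list's largest calls, except a gene that is not reported here. RBBP4, NSD2, members past the p limit but not the fold limit, and the genes of the 4 promoter stretches were added after their values were seen. On simulated data the MS023 fit recovered 78.8% of genes planted at log2 1, with 13 false calls among 12410. The PRMT1-KO fit recovered 81.0%, with 7 among 12465. The MS023 simulation planted 99 genes at log2 1 and 96 at log2 2 in normal noise, with no shift of all genes. The real comparison called 3986 genes, and several member calls lay nearer 0.48, so these rates may not carry over to it. Replicate numbers did not pair samples: the deviations of same-numbered samples correlated at 0.021 to 0.102 (MS023) and -0.142 to 0.070 (PRMT1-KO).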

Additional observations from a re-analysis of the deposited data

Results flagged for a closer look

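For 12 members the changes with MS023 and in PRMT1-KO differed by a direct test, which is why they are listed here. The test was limma on all 12 samples with Benjamini-Hochberg adjustment. With the fold limit it called 21.1% of the 57 members tested, against 24.4% of all 13256 genes tested. On the log2 scale, the drug's change less that of the knockout was -1.32 for HELLS, -1.03 for DNMT1, -1.0 for SUV39H2, -0.98 for SUV39H1 and -0.95 for NSD1. It was -0.84 for EZH2, -0.66 for HDAC2, -0.59 for EED, -0.58 for EHMT2 and -0.55 for KDM2B. It was 0.90 for KDM5B and 0.57 for SND1. The call of KDM2B was lost under both scalings, and the other 11 were called under all 19 alternatives. The 2 effects come from arms whose control groups differ, as the comparison of isgCtrl with DMSO shows.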

How the results depend on the processing

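No called value changed sign under any alternative, calls of single members were lost 29 times over all members and alternatives, and 9 of the 16 calls with MS023 held under all 14 alternatives. Dropping the fold limit gave 6 members higher and 26 lower with MS023 (2378 and 3922 of all genes). In PRMT1-KO it gave 0 higher and 1 lower (83 and 74 of all genes). For the difference of the effects it gave 4 higher and 17 lower (1903 and 2816 of all genes). For isgCtrl against DMSO it gave 29 higher and 1 lower (3030 and 1882 of all genes). Median-ratio scaling left 8 members lower with MS023 (1885 of all genes) and quantile normalization 9 (1939), while a pseudocount of 0.1 gave 20 (2670). In PRMT1-KO, where 51 genes were called higher and 45 lower, no member was called under any alternative that kept the fold limit. Counts over all genes there were 30 and 18 without the filter, 78 higher with all 12 samples in one fit, 27 lower with median-ratio scaling, 28 lower with quantile normalization, and 0 and 0 with the replicate block, where 2054 genes had an unadjusted p under 0.05. The lower share of those calls was 46.9%, and 29.3% with median-ratio scaling. For the difference of the effects it was 60.3%, and 49.4% with that scaling, and for isgCtrl against DMSO 49.0% and 59.1%. The replicate block kept all 16 member calls with MS023 and all 12 of the difference. Requiring a value above 1 in every sample left 526 genes lower in isgCtrl against DMSO.

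With each replicate left out in turn, 12 to 19 members were lower with MS023 (2274 to 2574 of all genes) and 2 higher (1379 to 1531). In PRMT1-KO 0 members were called. For the difference 10 to 13 were lower (1786 to 2029 of all genes). In isgCtrl against DMSO 8 to 9 were higher (847 to 987 of all genes) and 0 to 1 lower (840 to 1011). Over all genes in PRMT1-KO there were 1 to 11 higher and 1 to 10 lower, the fewest without isgCtrl replicate 2. With 3 samples a group, changes near the fold limit of 0.48 depend on scaling, and the depth behind the values is unknown.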
